A study of Arabidopsis thaliana with 6 samples.

Results

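Of the 567 probe sets that the authors listed as changed between ANAC069 overexpression and knockout plants under salt, 33 belong to single genes annotated to the chloroplast and to none of a set of excluded terms. The excluded terms cover translation, ribosome, nucleolus, transcription factor, protein kinase, chitin, defence and wounding annotations. The chloroplast term was carried by 53 of the listed probe sets, 6 of them had several or no matched gene, and 14 more were left out by an excluded term. The authors' tables place 15 of the 33 members higher and 18 lower in the overexpression plants. The members were thus chosen by the measured signals themselves, through the authors' limits of a 2-fold difference and an unadjusted p of 0.05. Applied to all 22746 probe sets other than controls, these limits alone took 2.11% as higher and 2.08% as lower, which is more than the authors listed. Because membership rests on this same comparison, the differences below describe the members and are not evidence that chloroplast genes changed.

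The study used Arabidopsis thaliana plants aged 4 weeks that had all received NaCl at 200 mM for 3 h. The overexpression group (OE) was the OE-3 line and the knockout group (KO) the KO-2 line, SALK_095231C, with 3 ATH1 arrays of biological replicates for each. Each genotype is thus represented by 1 line, and no source used here gives the promoter of the overexpression construct. No wild-type or unsalted plants were analysed here, so a value is high or low only relative to the other genotype. The labels name plants and no organ, and none of the 16 marker loci chosen for organs and cell types had a named probe set, so the tissue could not be checked. In such bulk RNA, fewer cells of a type and less RNA per cell cannot be told apart.

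Chloroplasts are the photosynthetic form of the plastid. They arose from a bacterial endosymbiont and keep a small genome, but nearly all of their proteins are encoded in the nucleus, made in the cytosol and imported. Besides photosynthesis they house steps of amino acid, tetrapyrrole, fatty acid and carotenoid synthesis, and the first steps of abscisic acid and jasmonate synthesis, which links them to the response of a leaf to salt and drought. Plastid genes are read by a bacterial-type RNA polymerase whose sigma factors and associated proteins come from the nucleus.

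Signals are the authors' MAS5 intensities, in which a probe set has 1 value per array on a linear scale with no unit. Log2 fold changes are OE minus KO on the log2(signal + 16) scale from a limma fit over 15922 probe sets, and SE is the standard error of that fit. ANAC069 itself (AT4G01550) had signals of 386, 364 and 391 on KO arrays 1, 2 and 3 and 2991, 2386 and 2360.2 on the OE arrays, in the direction of the labels. Median signals of the arrays lay between 149 and 186. The geometric mean of 6 ratios of 3' to 5' control signals, a sign of RNA quality, was 3.47, 2.97 and 2.88 on KO arrays 1, 2 and 3 and 3.91, 3.85 and 3.33 on OE arrays 1, 2 and 3. In this fit 4.87% of the probe sets had an adjusted p under 0.05, 3.03% with a higher and 1.84% with a lower signal in OE, and 62.2% of these calls were higher. Setting the medians of the 6 arrays equal raised that share to 84.7%, and the median log2 change over all probe sets went from -0.08 to 0.09.

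The chloroplast label of the members rests on different kinds of evidence. In the deposited annotation 9 members had a direct assay behind the chloroplast term: BCAT-2, SIB1, AT2G20670 and FC1 among the higher members and emb1796, PSAT2, CDT1A, CR88 and TRX z among the lower. For 20 members the term was inferred from electronic annotation alone, and for DRT100 from sequence similarity. The evidence for XTH4, PHB4 and HSP60-2 could not be read, because the deposited text ends before it. Chloroplast was the only term of any kind for 15 members. A thylakoid, stroma, envelope or chloroplast membrane term was held by 6, and 9 were also annotated to the mitochondrion, nucleus, plasma membrane, cytoplasm, wall or exterior of the cell. Several of these are best known from elsewhere: XTH4 acts in the cell wall, and HSP60-2 and PHB4 in mitochondria. The members are therefore a group by annotation.

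All 33 members passed the filter on low values. In the limma fit 14 of the 15 higher members and 9 of the 18 lower members had an adjusted p under 0.05, where 3.03% and 1.84% of all probe sets did. The OE and KO arrays did not overlap in any member, against 12.9% of all probe sets with OE above KO and 18.3% with OE below. The rule that chose the members fixes these contrasts, and nothing is read from them. Log2 fold changes ran from 0.996 to 2.97 with a median of 1.44 among the higher members, against a median of 1.33 for the 326 other probe sets of the up table. Among the lower members they ran from -1.53 to -0.90 with a median of -1.05, against -1.08 for the 208 others of the down table. Members just inside the authors' limits were FC1 and TRX z, with folds of 2.011 and 2.004 in the authors' deposited table, and NCED3, with an unadjusted p of 0.0463 there. Just outside, the nearest probe sets with a mean signal of at least 100 had folds of 1.9971 (higher) and 1.9997 (lower) or a p of 0.0501, and none has a name here.

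**Figure D1:**
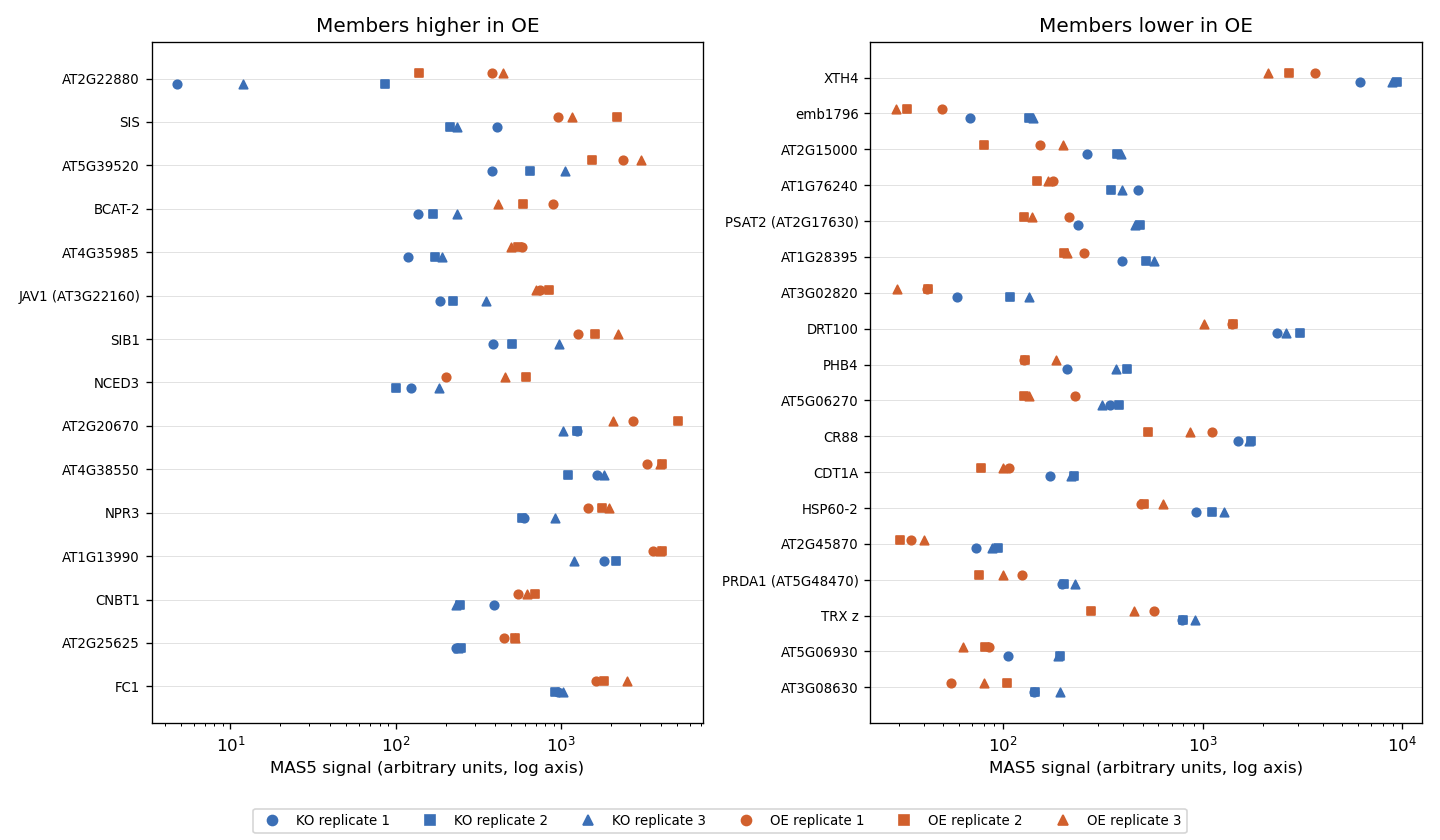
Signal of each member on each array, on a log axis, for the 15 members higher in OE (left) and the 18 lower in OE (right). Blue marks are KO and orange marks OE, with 1 shape per replicate number. No member has overlapping genotypes, and the widest spread is that of AT2G22880 in KO, from 4.74 to 85.4.

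Enzymes of plastid metabolism with higher signals in OE were NCED3, BCAT-2 and FC1. NCED3 (AT3G14440, chromosome 3 from 4831677 to 4833477, minus strand) cleaves epoxycarotenoids in the step that commits them to abscisic acid and is induced by drought and salt. Its signals were 123, 100.3 and 182 on KO arrays 1, 2 and 3 and 201, 609 and 456 on OE arrays 1, 2 and 3. OE array 1 lay barely above the highest KO array, and the means were 135 ± 42.1 in KO and 422 ± 206 in OE (SD, n = 3). The log2 fold change was 1.44 (SE 0.38). NCED3 was the only higher member without an adjusted p under 0.05. Here and below, coordinates are those of the probe set's alignment in the authors' deposited tables, whose genome build no source used here names.

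BCAT-2 (AT1G10070, chromosome 1 from 3288254 to 3290164, plus strand) encodes a plastid aminotransferase of the branched-chain amino acids leucine, isoleucine and valine. It gave 135, 167 and 233 on the KO arrays and 895, 587 and 414 on the OE arrays, so the genotypes lay well apart while the OE arrays differed among themselves by more than the KO arrays did. The log2 fold change was 1.70 (SE 0.29), the largest of the plastid enzymes. FC1 (AT5G26030, chromosome 5 from 9096674 to 9098752, plus strand) encodes a ferrochelatase, which inserts iron into protoporphyrin to make heme. Its KO signals of 956, 914 and 1030.0 were close together, with OE signals of 1617, 1818 and 2492. FC1 had the smallest log2 fold change of the higher members, 0.996 (SE 0.17).

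The one metabolic enzyme on the lower side was PSAT2 (AT2G17630, chromosome 2 from 7666636 to 7667905, plus strand), a phosphoserine aminotransferase of the plastid route to serine. PSAT2 gave 238, 487 and 458 in KO and 213, 126 and 140.1 in OE. KO array 1 was only slightly above OE array 1, while the other arrays lay far apart. Its log2 fold change was -1.19 (SE 0.29), with no adjusted p under 0.05.

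The 5 members assigned here to signalling and regulation were all on the higher side, a grouping that depends on how roles were assigned. All 5 had an adjusted p under 0.05, as did 14 of the 15 higher members and 3.03% of all probe sets. SIS (AT5G02020, Salt Induced Serine rich, chromosome 5 from 386556 to 387921, minus strand) takes its name from its induction by salt. Its signals were 411, 213 and 234 in KO and 955, 2162 and 1157 in OE. The lowest OE array was 2.32 times the highest KO array, and the log2 fold change was 2.22 (SE 0.33), the second largest of all members.

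SIB1 and JAV1 encode proteins with a VQ motif, short proteins that bind WRKY factors among other partners. SIB1 (AT3G56710, sigma factor binding protein 1, chromosome 3 from 21007052 to 21007508, minus strand) binds a sigma factor of the plastid RNA polymerase and also acts with WRKY factors in defence. SIB1 gave 389, 502 and 963 in KO and 1257, 1611 and 2216 in OE. Its log2 fold change was 1.498 (SE 0.33). KO array 3 was high, well above KO array 1. The other is AT3G22160, listed under the synonym JAV1 (jasmonate-associated VQ motif gene 1, chromosome 3 from 7818147 to 7818726, minus strand), which restrains jasmonate defences. Its signals of 185, 223 and 352 in KO and 745, 844 and 708 in OE left the OE arrays within a narrow band, and its log2 fold change was 1.58 (SE 0.22).

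NPR3 (AT5G45110, chromosome 5 from 18229318 to 18231334, plus strand) encodes a relative of NPR1 that binds salicylic acid and dampens the defences it triggers. The array values were 599, 581 and 914 in KO and 1456, 1766 and 1944 in OE, and the log2 fold change was 1.304 (SE 0.20). CNBT1 (AT3G17700, also CNGC20) encodes a cyclic nucleotide-gated ion channel. It ranged from 230.5 to 394 in KO and from 547 to 696 in OE, with a log2 fold change of 1.09 (SE 0.21). KO array 3 was the highest KO array for SIB1, JAV1 and NPR3, and KO array 1 for SIS and CNBT1.

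The remaining 7 higher members have no described role in the deposited annotation, which does not mean that none is known. All 7 had an adjusted p under 0.05, where 3.03% of all probe sets did so with a higher signal. AT2G22880 (chromosome 2 from 9741118 to 9741463, minus strand) had the largest difference, with 4.74, 85.4 and 11.9 in KO against 379.5, 139 and 443 in OE. On 2 KO arrays it was under 16, the constant added before taking logs, and it was the only member with such a value. The log2 fold change was therefore tied to that constant: it was 2.97 (SE 0.62) with 16, 3.95 with 1 and 1.96 with 64. KO array 2 and OE array 2 came within 1.63-fold of each other, although the genotypes did not overlap.

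AT5G39520 (chromosome 5 from 15823919 to 15825416, minus strand) gave 379.5, 646 and 1053 in KO and 2368, 1545 and 3036 in OE. Its arrays were scattered in both genotypes, and its log2 fold change was 1.78 (SE 0.36). By contrast AT4G35985 (chromosome 4 from 17032267 to 17033862, minus strand) was tight, with 119, 171 and 189 in KO and 579, 549 and 496 in OE, with a log2 change of 1.68 (SE 0.19). Its lowest OE array was 2.62 times its highest KO array, the widest such gap of any member. It was also the only member with an adjusted p under 0.05 in limma whichever of the 6 arrays was left out.

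AT2G20670 (chromosome 2 from 8912162 to 8913472, minus strand) had even KO signals of 1248, 1239.7 and 1026 and uneven OE signals of 2729, 5096 and 2053. OE array 2 was by far its highest, and the log2 fold change was 1.38 (SE 0.29). AT4G38550 (chromosome 4 from 18025885 to 18028546, plus strand) gave 1636, 1092 and 1820.4 in KO and 3286, 4085 and 3941 in OE, a change of 1.33 (SE 0.20). The suffix of its probe set name marks probes that can match more than 1 transcript. AT1G13990 (chromosome 1 from 4794809 to 4796476, plus strand) gave 1825, 2140.1 and 1197 in KO and 3572, 4058 and 3940.0 in OE, a change of 1.196 (SE 0.21). AT2G25625 had the most even KO arrays of any member, from 232 to 248, with OE arrays from 451 to 528 and a log2 fold change of 1.02 (SE 0.14).

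Among the lower members, 2 genes encode partners of the plastid RNA polymerase. TRX z (AT3G06730, chromosome 3 from 2124275 to 2125845, plus strand) is a plastid thioredoxin found in the polymerase complex and needed for chloroplast development. It gave 784, 795 and 919.6 in KO and 572, 274 and 454 in OE, with a log2 change of -0.97 (SE 0.24) with no adjusted p under 0.05. The second is AT5G48470, listed under the synonym PRDA1 (PEP-Related Development Arrested 1, chromosome 5 from 19641809 to 19644127, plus strand), which is required for transcription by that polymerase. PRDA1 gave 197, 202 and 228 in KO and 124, 75.3 and 99.7 in OE, a change of -0.98 (SE 0.21), and it had an adjusted p under 0.05. For both genes the KO arrays were close together and the OE arrays ranked in the same order, with array 1 highest and array 2 lowest. SIB1, which binds a sigma factor of the plastid RNA polymerase, went the other way, with a log2 fold change of 1.498. It stands apart from TRX z and PRDA1 here only because of how roles were assigned.

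emb1796 (AT3G49240, chromosome 3 from 18256085 to 18257975, plus strand) is named for the embryo defect of its mutant and is annotated to both mitochondria and chloroplasts. Its signals were 68.3, 135 and 141 in KO and 49.4, 32.8 and 28.8 in OE, with KO array 1 near the OE range. The log2 fold change was -1.27 (SE 0.32), with no adjusted p under 0.05. No sigma factor gene of the pathway lists described further on had a named probe set in the deposited tables.

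A trio of lower members encode chaperones or a related scaffold protein. CR88 (AT2G04030, chromosome 2 from 1281982 to 1285909, plus strand) is the chloroplast form of the heat shock protein HSP90, which folds client proteins in the stroma. CR88 gave 1505, 1737 and 1704 in KO and 1107, 534 and 863 in OE, with a log2 change of -1.03 (SE 0.24). Its OE arrays followed the order seen for TRX z and PRDA1. HSP60-2 (AT2G33210, chromosome 2 from 14075092 to 14078054, minus strand) is a chaperonin of mitochondria, and it gave 920.5, 1110.1 and 1276 in KO and 491, 506 and 633 in OE, a change of -0.995 (SE 0.17). PHB4 (AT3G27280, chromosome 3 from 10076903 to 10078051, plus strand) encodes a prohibitin, part of a ring-shaped scaffold of the inner mitochondrial membrane. Its signals were 208, 417 and 365 in KO and 127, 129 and 184 in OE, so KO array 1 lay just above OE array 3, and its change of -1.05 (SE 0.27) had no adjusted p under 0.05.

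Genes of DNA replication and repair formed another trio. CDT1A (AT2G31270, chromosome 2 from 13329036 to 13331544, plus strand) licenses nuclear DNA for replication and also takes part in plastid division. CDT1A gave 172, 227 and 218 in KO and 106, 77.3 and 99.3 in OE, with a log2 change of -1.01 (SE 0.20). DRT100 (AT3G12610, DNA-damage repair/toleration 100, chromosome 3 from 4006660 to 4007779, minus strand) gave 2366, 3074 and 2608 in KO and 1407, 1425 and 1009 in OE, a change of -1.07 (SE 0.17). Both had an adjusted p under 0.05 and clear gaps between the genotypes. AT3G02820 (chromosome 3 from 610974 to 613294, plus strand), annotated to replication fork protection and the cell cycle, gave 58.5, 109 and 135 in KO and 41.3, 41.9 and 29.3 in OE. Its KO arrays were scattered, and its change of -1.07 (SE 0.32) had no adjusted p under 0.05.

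XTH4 (AT2G06850, chromosome 2 from 2763618 to 2765490, plus strand) encodes a xyloglucan endotransglucosylase, which cuts and rejoins wall polymers in growing cells. It gave 6120.0, 9413 and 8855 in KO and 3671, 2703 and 2118 in OE, with a log2 change of -1.53 (SE 0.23). AT2G45870 (chromosome 2 from 18875927 to 18877440, plus strand) is annotated as an integral protein of the chloroplast membrane. AT2G45870 gave 72.8, 94.1 and 88.1 in KO and 34.4, 30.2 and 40.2 in OE. These arrays were even within each genotype, yet its change of -0.99 (SE 0.25) had no adjusted p under 0.05.

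The other 6 lower members have no described role in the deposited annotation, with the same limit as for the higher members. AT1G76240 (chromosome 1 from 28602948 to 28603875, minus strand) gave 476, 345 and 392 in KO and 178, 148 and 168 in OE, a log2 change of -1.21 (SE 0.17). Its lowest KO array was 1.93 times its highest OE array, the widest gap of the lower members. AT1G28395 (chromosome 1 from 9971071 to 9971433, minus strand) gave 396, 520.2 and 569 in KO and 255, 203 and 209.6 in OE, a change of -1.09 (SE 0.18). AT5G06270 (chromosome 5 from 1912894 to 1913263, plus strand) gave 342, 380.4 and 314 in KO and 230.2, 127 and 135 in OE, a change of -1.05 (SE 0.23). These 3 genes had an adjusted p under 0.05, and the next 3 did not. AT2G15000 (chromosome 2 from 6481636 to 6482316, minus strand) gave 264, 371 and 388 in KO and 153, 79.7 and 200.0 in OE, with a change of -1.22 (SE 0.30) and scattered OE arrays. AT5G06930 ranged from 105 to 193 in KO and from 62.5 to 85.0 in OE, and AT3G08630 from 143 to 193 and from 54.9 to 104.

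**Figure D2:**
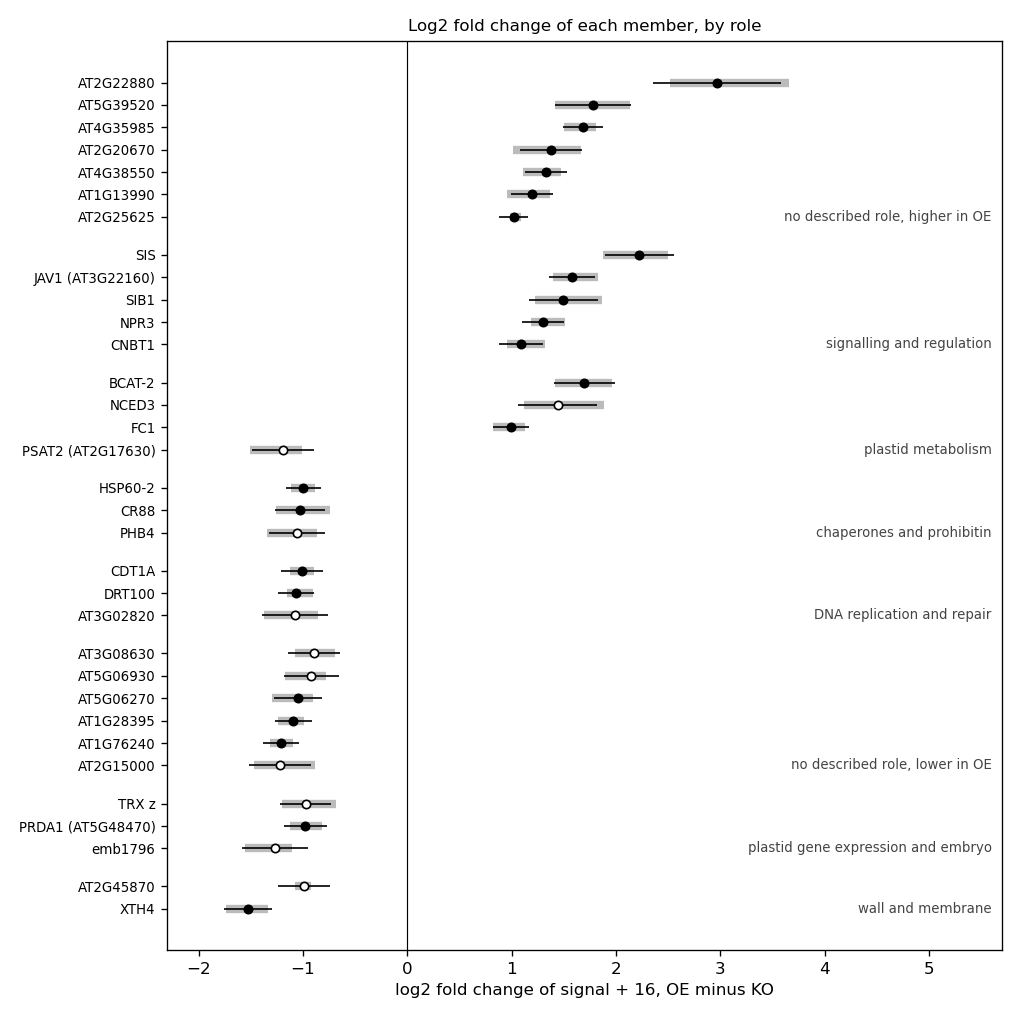
Log2 fold change of each member, OE minus KO, by role. Points are the limma estimates with all 6 arrays and thin bars their SE, filled where the adjusted p was under 0.05 (23 of 33), and grey bars span the estimates with each array left out in turn. Every member kept its sign in those fits, which the lack of overlap between the genotypes fixed in advance. AT2G22880 had the widest span.

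The lower members shared an order of arrays within each genotype. This order comes from the same 6 arrays as the rule and is given as a description. KO array 1 was the lowest of the 3 KO arrays in 16 of the 18 lower members, the exceptions being AT1G76240 and AT5G06270. The same array was lowest in 70.7% of the 208 other probe sets of the down table and in 39.3% of all probe sets tested. OE array 1 was the highest OE array in 11 of the 18, against 58.2% of the other listed probe sets and 35.1% of all probe sets tested. OE array 2 was the lowest in 10. On these arrays the genotypes therefore came closest at array 1 of each, and the pattern was shared with the rest of the down table. Of the KO arrays, array 1 also had the highest 3' to 5' control ratio. In OE, the array with the highest ratio was again array 1, where the lower members stood highest. The ratios also differed between the genotypes, at 3.91, 3.85 and 3.33 on the OE arrays and 3.47, 2.97 and 2.88 on the KO arrays. A fit with the ratio as a further term is given below. Because the ratio varied in part with genotype, that fit does not separate them. The part of RNA quality in the result was not tested.

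Higher members shared less. Over the 6 arrays, deviations from the genotype means had a median Pearson correlation of 0.06 between pairs of higher members (105 pairs), 0.45 between pairs of lower members (153 pairs) and -0.02 between a higher and a lower member (270 pairs). These pairs share the same 6 libraries, and the deviations sum to 0 within a genotype, so the values are a description only. No such correlations were computed for other listed probe sets, so they do not show that members are more alike than those. OE array 1 was the lowest OE array in 9 of the 15 higher members, against 55.5% of the other probe sets of the up table and 33.0% of all tested. KO array 3 was the highest KO array in 9, against 43.9% and 34.8%. For the member with the largest difference, AT2G22880, the deviations most like its own over the 6 arrays were those of AT2G45870 (r = 0.84), CDT1A (r = 0.82) and PHB4 (r = 0.71), all lower members.

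**Figure D3:**
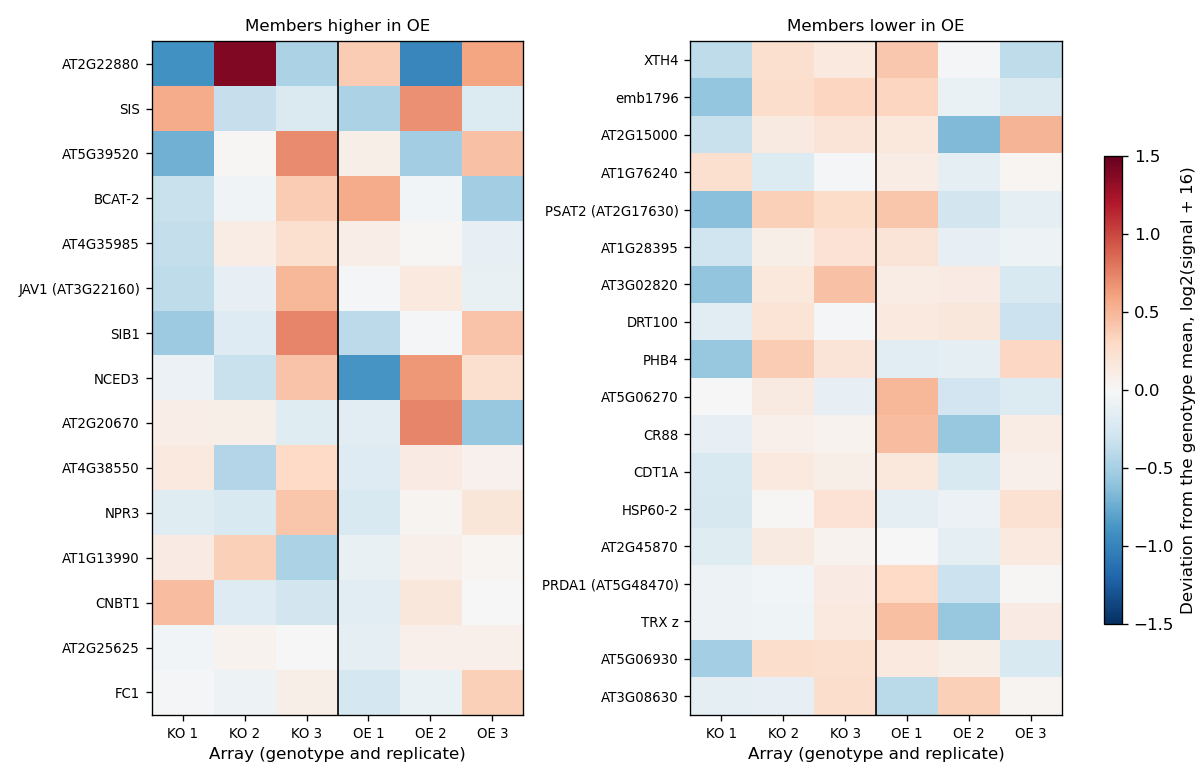
Deviation of each member from its genotype mean on each array, in log2(signal + 16), red above and blue below the mean. Members higher in OE are on the left and lower members on the right, with KO and OE arrays parted by a line. On the right, KO 1 is blue in most rows and is the lowest KO array in 16 of 18.

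How many members had an adjusted p under 0.05 depended on single arrays. Without KO replicates 1, 2 and 3 in turn, 14, 5 and 10 higher members and 14, 1 and 3 lower members did. Without OE replicates 1, 2 and 3 the numbers were 13, 1 and 2 among the higher and 11, 0 and 0 among the lower members. Over all probe sets, the share called higher ran from 0.415% to 3.44% in these fits and the share called lower from 0.044% to 5.35%. Calls over all probe sets thus depended on single arrays too. AT2G45870 and AT3G08630 had no adjusted p under 0.05 in any of the 6 fits. A fit added after the data were seen held the 3' to 5' control ratio as a further term. In it 6 higher and 0 lower members had an adjusted p under 0.05 in limma, where 1.19% and 0.119% of all probe sets did. The median log2 fold change in that fit was 1.65 among the higher and -0.82 among the lower members. Values that moved by over 1.5 times were smaller for PHB4 (-0.35), AT2G15000 (-0.59), HSP60-2 (-0.61), AT2G20670 (0.89) and CNBT1 (0.72), and larger for SIB1 (2.34) and AT5G39520 (2.74). With 64 in place of 16 added to the signals, the changes of the dim members emb1796, AT3G02820 and AT2G45870 were -0.80, -0.67 and -0.59. With the array medians set equal, 15 higher and 8 lower members had an adjusted p under 0.05, where 4.99% and 0.898% of all probe sets did. The median log2 fold change of the members was then 1.61 and -0.88.

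**Figure D4:**
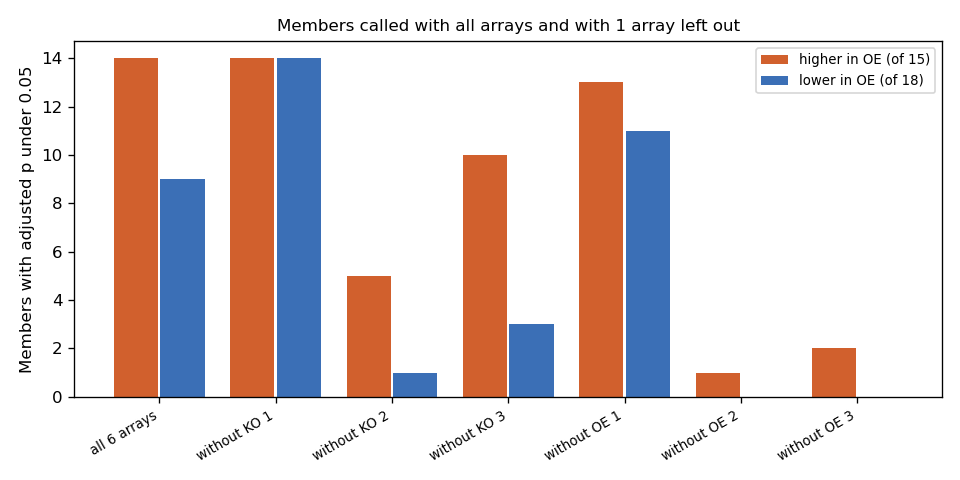
Number of members with an adjusted p under 0.05 in limma with all 6 arrays and with 1 array left out, for the 15 members higher in OE (orange) and the 18 lower in OE (blue). The lower members number 9 with all arrays, 14 without KO replicate 1 and 0 without OE replicate 2 or 3. Of all probe sets, 1.84%, 5.35%, 0.044% and 0.0691% were called lower in these fits.

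Few loci of the chosen lists of plastid processes had a named probe set in the deposited tables. The lists are not complete. CR88, TRX z, PSAT2 and BCAT-2 are members with named probe sets but stand on none of the lists. The rule for members also names LOX3 and LOX4 as genes to leave out. A list without a named probe set, oxylipin synthesis included, therefore does not show that no gene of that process was listed by the authors. Of 256 loci in 11 lists of plastid processes, 2 had a named probe set there, both higher in OE: FC1 of the 32 tetrapyrrole and chlorophyll breakdown loci and NCED3 of the 22 isoprenoid and carotenoid loci. No locus of the lists for the light reactions (44), carbon fixation (20), starch and sugar exchange (32), plastid fatty acids and lipids (23), redox and antioxidant proteins (24), chaperones, proteases and import (25), sigma factors and retrograde signalling (8), nitrogen, sulfur and amino acids (18) or oxylipin synthesis (8) had one. Their probe sets carry no names here, so their levels were not analysed and no lack of change follows.

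Annotations beyond the chloroplast were counted in each direction. The mitochondrion term was held by 4 of 18 lower members (emb1796, PHB4, CR88 and HSP60-2) and by 1 of 15 higher members (FC1), against 4.48% and 1.95% of the other listed genes in each direction. Protein folding was held by CR88 and HSP60-2 and by no higher member. The term for response to stress was held by NCED3 among the higher members and by PHB4, CR88 and HSP60-2 among the lower, against 12 of the 307 other genes of the up table and 0 of the 201 of the down table. The chloroplast term itself was carried by 11.5% of the probe sets of the down table and 7.92% of those of the up table. These shares are given as counts of annotation, with no test. Each count covers the exact term only, so genes annotated to a more specific term, such as response to salt stress, can be missing from it.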

How the data were processed

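The 6 arrays, 3 of each genotype, were grouped by sample labels. The deposited table holds each probe set's intensity, made by the authors with MAS5 per the submitters' processing notes (version not given in the sources). The authors' up and down tables, per the file headers, list an unsigned fold and a p-value per probe set. Both were recomputed from log2 signals to within 6.86e-06 (log2 fold) and 1.06e-06 (p), OE over KO. Their 48 columns of per-array values match no sample label and were not used.

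Members were found in those tables by Gene Ontology identifiers, and names were matched by gene identifier to RefSeq's gene table (TAIR10.1, names only). Annotation cells end at 255 characters, so an excluded term beyond that point would be missed. Members and gene lists were chosen with earlier results of these data known.

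limma 3.58.1 in R 4.3.3 (lmFit, eBayes with trend) was run on log2(signal + 16) with no term but group. The 64 control probe sets and those at or below the 30th percentile of mean log2 signal were left out, leaving 15922. Adjusted p-values are Benjamini-Hochberg, two-sided, over all of these. The steps were run on simulated arrays with noise drawn separately for each probe set and array. Those had no deviations shared by many probe sets, so that run does not show how calls behave under such deviations. The number of arrays limits the precision. By a fixed rule, values on every array are given for 29 members, namely the 10 largest changes in each direction and the 3 with the highest mean signal in each role, and ranges for 4. Scaling, pseudocount, filter, replicate block and left-out arrays were varied. No sequences were used here.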

Additional observations from a re-analysis of the deposited data

How the results depend on the processing

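All 33 members kept their direction under each of the 14 alternatives that tested them (8 members fell below a filter at the 50th percentile). For left-out arrays, other pseudocounts, filters and the replicate block this was fixed in advance, because the genotypes did not overlap in any member. Of 454 member values under alternatives, 328 stayed on the same side of an adjusted p of 0.05 in limma, 111 lost it and 15 gained it. With all arrays, 483 probe sets were higher and 293 lower, with 14 and 9 members among them. Setting array medians equal gave 794 higher and 143 lower. Without the filter on low signals, 261 were higher and 76 lower, with 9 and 5 members. With the 3' to 5' control ratio as a covariate, chosen after seeing the data, 189 were higher and 19 lower, with 6 and 0 members. Leaving out 1 array in turn gave 66 (without OE replicate 2) to 548 (without KO replicate 1) higher and 7 (without KO replicate 2 or OE replicate 2) to 852 (without KO replicate 1) lower. Higher counts without KO replicates 2 and 3 and OE replicate 3 were 153, 243 and 88, and lower counts without KO replicate 3, OE replicate 1 and OE replicate 3 were 37, 587 and 11. Members called ran from 1 to 14 higher and from 0 to 14 lower. The causes were not tested.

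Deviations of same-numbered arrays correlated at -0.24, -0.12 and 0.06, and those of differently numbered arrays at -0.21 to 0.27. Deviations sum to 0 within a genotype, so these values cannot show whether the replicate numbers pair the samples. With the replicate number as a block, 238 probe sets were higher and 37 lower, with 11 and 4 members.

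With 3 arrays a genotype, the SE of a member's log2 change ran from 0.14 to 0.62, and the number of arrays limits the precision.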
